A study of Mus musculus with 10 samples.

Results

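The genes described here encode the enzymes that place methyl groups on histone lysines and those that take them off. They were chosen by name. Every gene of the deposited count table whose symbol starts with Kdm, Kmt or Setd was taken, with Ehmt1, Ehmt2, Ezh1, Ezh2, Suv39h1, Suv39h2, Dot1l and Nsd1. This gave 44 of the 18493 genes. Of these, 39 had enough counts to be tested, among 12315 genes tested in all, and the other 5 are described by their counts.

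RNA of mouse ovarian oocytes was sequenced in 10 libraries, each prepared by SMART-seq2, which copies polyadenylated RNA into full-length cDNA and amplifies it. There were 3 libraries of young oocytes, labelled control, 3 of aged oocytes and 4 of a spermidine group labelled rescue, taken here as aged oocytes with spermidine, a polyamine. The series set out to learn how spermidine alters the transcripts of aged oocytes. The sources used here did not give strain, age, dose or route, nor how many oocytes or animals stand behind a library. The p-values therefore reflect only how far these libraries spread, and part of that spread may be technical.

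A histone lysine can carry 1, 2 or 3 methyl groups, and what the mark does depends on the lysine. Methylation of lysine 4 of histone H3 (H3K4) marks promoters and enhancers, that of H3K36 and H3K79 marks transcribed genes, and that of H3K9 and H3K27 marks silenced chromatin. Growing oocytes lay down unusual patterns of these marks, such as broad domains of trimethylated H3K4, and the marks guide where DNA is methylated. The methyltransferases are called writers here and the demethylases erasers. RNA levels say nothing of the amount of enzyme or of the mark itself, neither of which was measured.

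In aged oocytes 3 of 39 tested members rose (7.69%) and 0 fell, against 9.71% of all tested genes that rose and 8.06% that fell. They were the H3K4 demethylase gene Kdm5b, the H3K9 and H3K36 demethylase gene Kdm4a, and Setd3, whose protein has a SET domain but is known as a methyltransferase of a histidine of actin. The age calls of Kdm4a and Setd3 were each lost when certain single libraries were left out. Over all tested genes, calls with age also dropped, from 2189 to 827 without young replicate 1 and to 1031 without young replicate 3. With spermidine, Kdm4a fell below its level in aged oocytes, and between spermidine and young oocytes 0 members passed. Because these 3 genes are the ones on which the results turn, the 250 bases before their annotated transcription start are shown here, 5′ to 3′ on the strand of the gene, from RefSeq on GRCm38.p6, in lower case with each GC box (GGGCGG or its reverse complement) in capitals. The Kdm5b window is chr1:134559928-134560177 on the plus strand, that of Kdm4a is chr4:118180044-118180293 on the minus strand, and that of Setd3 is chr12:108179242-108179491 on the minus strand. Setd3 has a second annotated start, whose window, chr12:108179285-108179534 on the minus strand, overlaps the first and is not shown.
Kdm5b: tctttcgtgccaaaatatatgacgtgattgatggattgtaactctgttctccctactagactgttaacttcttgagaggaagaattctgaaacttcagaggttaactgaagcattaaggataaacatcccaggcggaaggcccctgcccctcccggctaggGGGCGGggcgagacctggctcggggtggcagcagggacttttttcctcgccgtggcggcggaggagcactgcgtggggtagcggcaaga
Kdm4a: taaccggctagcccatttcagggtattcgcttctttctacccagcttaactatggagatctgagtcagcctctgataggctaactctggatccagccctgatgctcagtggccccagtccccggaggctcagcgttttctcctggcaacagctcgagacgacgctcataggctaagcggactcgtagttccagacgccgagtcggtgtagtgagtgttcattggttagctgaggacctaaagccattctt
Setd3: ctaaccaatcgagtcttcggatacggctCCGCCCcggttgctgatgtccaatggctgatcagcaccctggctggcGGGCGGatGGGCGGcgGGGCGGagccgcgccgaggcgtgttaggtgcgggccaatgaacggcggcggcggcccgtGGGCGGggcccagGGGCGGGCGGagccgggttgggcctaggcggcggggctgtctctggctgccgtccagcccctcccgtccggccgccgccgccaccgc

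The 3 windows shown have little in common by these letters. The GC box, searched on both strands, occurs 7 times in the Setd3 window, with overlapping copies counted, once in that of Kdm5b and 0 times in that of Kdm4a. It is found in 32.7% of 32851 such windows of all genes and in 30 of the 47 windows of the 35 members that have an entry. The CCAAT box (CCAAT, both strands) occurs 3 times for Setd3, once for Kdm4a and 0 times for Kdm5b, and in 33.8% of all windows. CpG dinucleotides number 13 for Kdm5b, 12 for Kdm4a and 33 for Setd3, against a median of 21 over the members' windows and 6 over all windows. The element TAATTG, which the oocyte factor NOBOX can bind, is in 0 of the 47 members' windows and in 7.17% of all windows (both strands). A match or its absence describes these letters only.

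Library totals lay between 24222201 and 28730822 counts. Levels are given as CPM, counts scaled to the library total after TMM normalisation, which sets libraries to the same level for most genes, and 3 counts in a library correspond to 0.0902 to 0.138 CPM. The oocyte label fits the markers, since all 11 oocyte marker genes were tested and summed to at least 19236 CPM in each library. These markers also differed between groups. In aged minus young 9 of the 11 were above 0, 2 passed as higher and 1 as lower, and their median was 0.67, against 0.10 over all tested genes. In spermidine minus aged 2 of the 11 were above 0, 1 passed as lower and the median was -0.41, against -0.03. The part of this shift in the results was not tested. Markers of granulosa cells summed to 18.5 to 25.3 CPM, with 18.5 to 21.9 CPM in young and in aged libraries alike. Of the 4 tested, 2 (Fshr and Nr5a2) were higher in aged than in young oocytes and 0 passed as lower. Cyp19a1 was at 10.9, 16.7 and 13.6 CPM in young and 8.81, 11.98 and 9.91 CPM in aged libraries. Inha was at 2.03, 0.682 and 1.69 CPM in young and 0.234, 0.948 and 1.32 CPM in aged libraries. Amh, Has2, Ptx3 and Foxl2 were at or near 0. Markers of theca and stroma summed to at most 1.94 CPM. Blood markers summed to 26.7 CPM in the highest young library and 11.7 CPM in the highest aged library, and to at most 1.3 CPM in the spermidine libraries. Of the haemoglobin genes, Hba-a2 was at 5.53, 0 and 4.45 CPM in young replicates 1, 2 and 3, at 2.70 CPM in aged replicate 1 and at 0 in the other 6 libraries, and its part in the results was not tested.

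The libraries labelled aged replicate 1 and spermidine replicate 1 stood apart for these genes. Of the 39 tested members, 25 had their highest value of all 10 libraries in aged replicate 1, where 21.0% of all tested genes had theirs. On the log2 scale the median member lay 0.49 above its own mean in aged replicate 1 and 0.26 above it in spermidine replicate 1, and between -0.19 and 0.03 in the other 8 libraries. The median of all tested genes stayed between -0.06 and 0.04 in each library. Members have long transcripts, with a median of 5935 bases against 3069 over all tested genes, and the deviations of a library correlated with transcript length, across 11996 genes that are not independent replicates, at 0.41 in aged replicate 1, 0.15 in spermidine replicate 1 and -0.20 to 0.06 in the others. The part of length in each change was not tested, and values without aged replicate 1, or after a correction for length and GC content, are given beside many of the results.

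**Figure D1:**
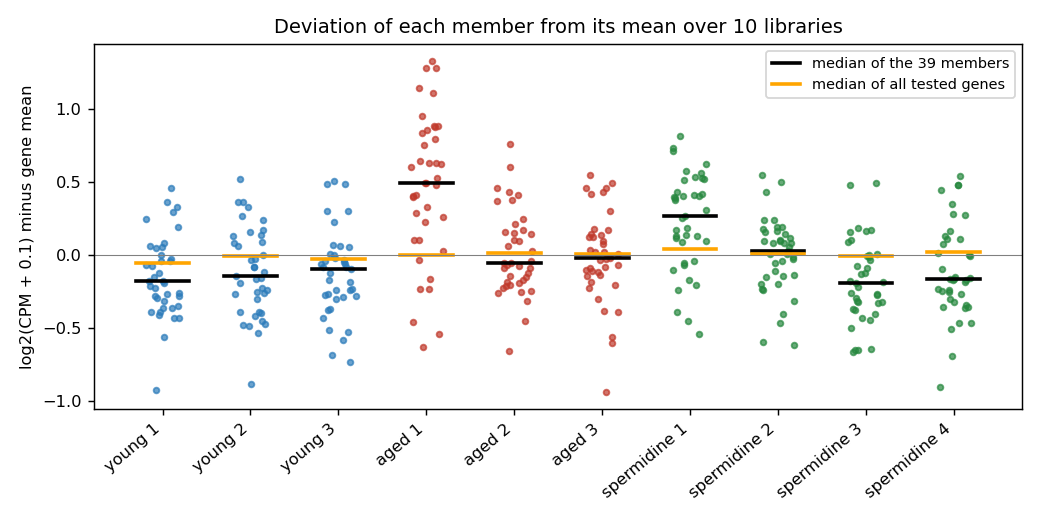
Deviation of each of the 39 tested members from its own mean over 10 libraries, on the scale log2(CPM + 0.1), by library. Points are members, black lines the members' median and orange lines the median of all tested genes. The black line stands at 0.49 in aged replicate 1 and 0.26 in spermidine replicate 1, and between -0.19 and 0.03 in the other 8 libraries.

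Levels between genes are compared as mean CPM per kilobase of the longest annotated coding transcript. The median tested member stood at 1.98 CPM per kilobase and the median of all tested genes at 2.24, so the enzymes as a group were at ordinary levels, but they spread widely. Setd4 was highest with 234 CPM per kilobase, above 97.6% of the tested genes. The activity of its protein on histones is not settled. Ezh2, the main catalytic subunit of the H3K27 methyltransferase complex PRC2, followed with 69.0, and then Suv39h1, which trimethylates H3K9, with 42.8. The next, Kdm2b and Kdm1b, were at 13.1 and 12.9. At the low end of the tested members were Setd1b with 0.108, Kdm4c with 0.114 and Ehmt2, which encodes the H3K9 dimethyltransferase G9a, with 0.125 CPM per kilobase.

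Close relatives differed in level, and for several marks 1 gene supplied most of the transcripts. Ezh2 made up 93.6% of the summed level per length of the pair Ezh1 and Ezh2, and Kdm2b 98.0% of that of Kdm2a and Kdm2b. Among the H3K4 erasers, Kdm1b took 67.1%; its enzyme removes H3K4 methylation in oocytes so that imprinted genes can be methylated. Suv39h1 made up 60.5% of the H3K9 writers. Kmt2c, which monomethylates H3K4 at enhancers, made up 49.1% of the H3K4 writers in young, 59.1% in aged and 55.2% in spermidine oocytes. The aged share includes aged replicate 1, where Kmt2c was at 152 CPM. Its mean was 54.1 CPM in aged replicates 2 and 3 and 48.0 CPM in young oocytes. The share without aged replicate 1 was not computed. Kmt5a, which monomethylates lysine 20 of histone H4, made up 85.3% of the writers of that mark.

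**Figure D2:**
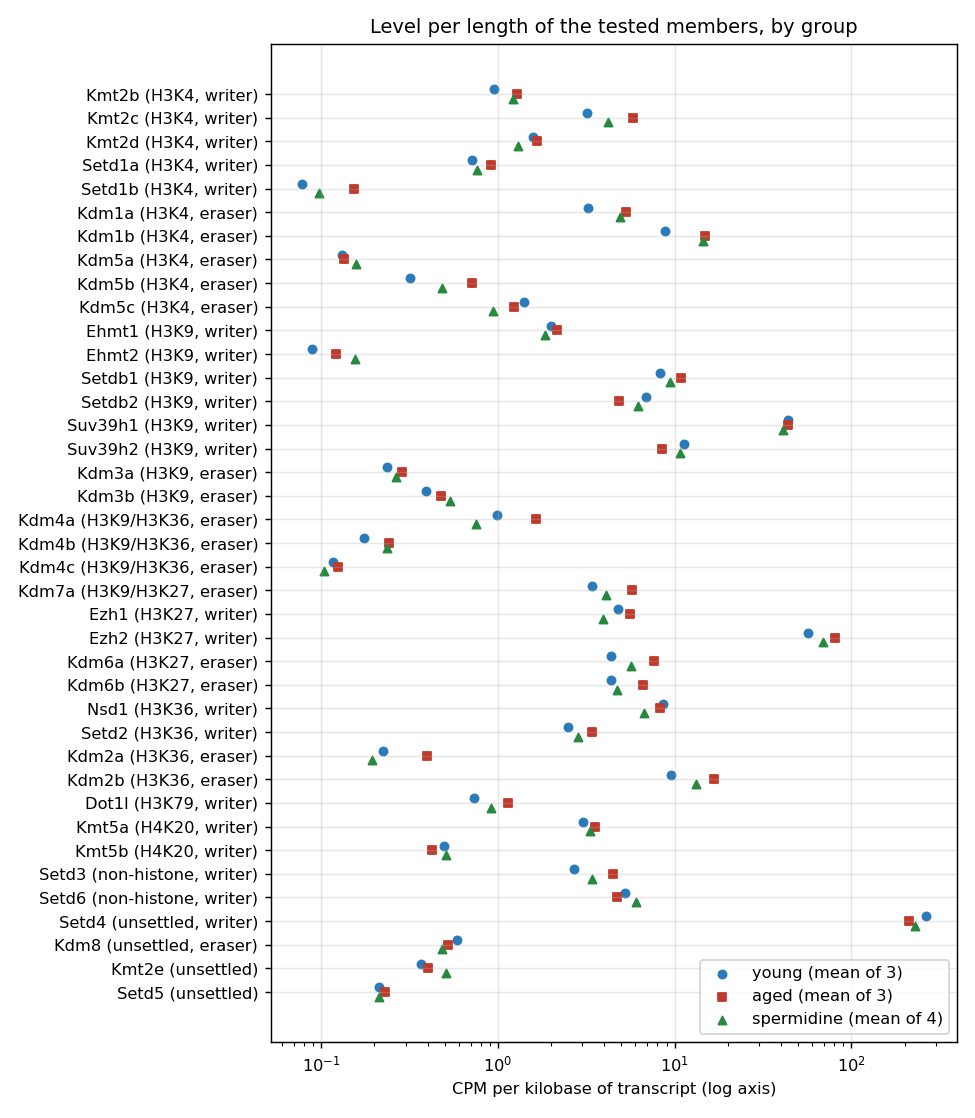
Mean level of the 39 tested members in each group, in CPM per kilobase of transcript on a log axis, ordered by histone mark with writers before erasers. Circles, squares and triangles are the young, aged and spermidine means of 3, 3 and 4 libraries. Setd4, Ezh2 and Suv39h1 lie highest, and the differences between genes are far larger than those between groups.

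The 5 members below the filter had few reads. Kmt2a, the founding gene of the H3K4 methyltransferase family, had 1 to 7 counts in a library and 31 over all 10. Kdm4d had 1 to 19 counts and Kmt5c 1 to 18. Setd7 had 0 counts in each aged library and at most 4 elsewhere. The Y-linked gene Kdm5d had 2 counts in young replicate 1 and 0 in the other 9 libraries. These counts are too few for a comparison, and 0 counts allow up to 3 in a library.

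The first comparison asked which of these genes differ between aged and young oocytes. Of the 39 tested members, 3 were higher (7.69%) and 0 lower, where 9.71% of all tested genes were higher and 8.06% lower (17.8% in all), so the share that passed was not above the background. At an unadjusted p under 0.05 there were 15 of 39 members, where 34.7% of all tested genes were, 2 of the 15 lower (Setd4 and Setdb2), and DESeq2 called 0 as lower. These are bulk samples, in which fewer cells of a type and less RNA per cell cannot be told apart. Without a threshold, 31 of 39 members had a log2 fold change above 0, with a median of 0.35 against 0.10 over all tested genes, 56.0% of which were above 0. The range was -0.50 to 1.16. Without aged replicate 1 the median of the members was 0.06 and that of all genes 0.01. The 2543 tested genes with transcripts over 5000 bases, members included, had a median of 0.32, and the 21 members of that length one of 0.43, which became 0.04 and 0.05 without aged replicate 1.

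Kdm5b (Gene ID 75605) encodes an eraser of trimethylated H3K4. It stood at 2.76, 3.12 and 2.45 CPM in the young libraries, at 8.07, 4.81 and 5.72 CPM in the aged ones, and at 4.66, 4.42, 3.60 and 4.18 CPM with spermidine. Each aged library was above each young library, and the spermidine libraries lay between the 2 groups without overlap with either. Kdm5b averaged 2.78 CPM ± 0.339 (SD, n = 3) in young and 6.20 CPM ± 1.68 (SD, n = 3) in aged oocytes and rose with age, with a log2 fold change of 1.16 (SE 0.22, edgeR adjusted p = 0.00623). The change was 0.88 without aged replicate 1, and over all 19 alternatives in which it was tested it ran from 0.87 to 1.31 and passed. Spermidine minus aged was -0.56 (SE 0.20, edgeR adjusted p = 0.121), or -0.32 without aged replicate 1, and spermidine minus young 0.60 (SE 0.21, edgeR adjusted p = 0.136), so neither passed.

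Kdm4a (Gene ID 230674) encodes an eraser of H3K9 and H3K36 trimethylation that, in oocytes, keeps H3K9 methylation away from broad H3K4 domains. Its values were 4.52, 5.39 and 3.91 CPM in young, 8.81, 7.28 and 6.75 CPM in aged and 3.46, 4.13, 3.00 and 3.41 CPM in spermidine libraries. Aged libraries were above all others, and the spermidine libraries overlapped the young ones. The rise with age was 0.72 on the log2 scale (SE 0.20, edgeR adjusted p = 0.0279). That call was lost without young replicate 1 (adjusted p = 0.113), young replicate 3 (0.133), aged replicate 1 (0.0826) or aged replicate 2 (0.0563), by edgeR in each case. It was also lost after correction for length and GC content, where the change was 0.44 (edgeR adjusted p = 0.118).

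Setd3 (Gene ID 52690), the actin histidine methyltransferase gene, was at 7.37, 7.94 and 7.03 CPM in young and 11.4, 12.7 and 13.1 CPM in aged libraries. The groups did not overlap, and here aged replicate 1 was the lowest aged library. The spermidine libraries, at 10.2, 8.63, 8.95 and 10.05 CPM, fell between the 2. Setd3 rose by 0.74 on the log2 scale with age (SE 0.16, edgeR adjusted p = 0.00948), and by 0.75 without aged replicate 1. The call was lost without young replicate 1 (0.69, edgeR adjusted p = 0.0524) or young replicate 3 (0.64, edgeR adjusted p = 0.0556). Spermidine minus aged was -0.39 (SE 0.14, edgeR adjusted p = 0.122), which passed with DESeq2 alone among the alternatives (adjusted p = 0.0360).

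**Figure D3:**
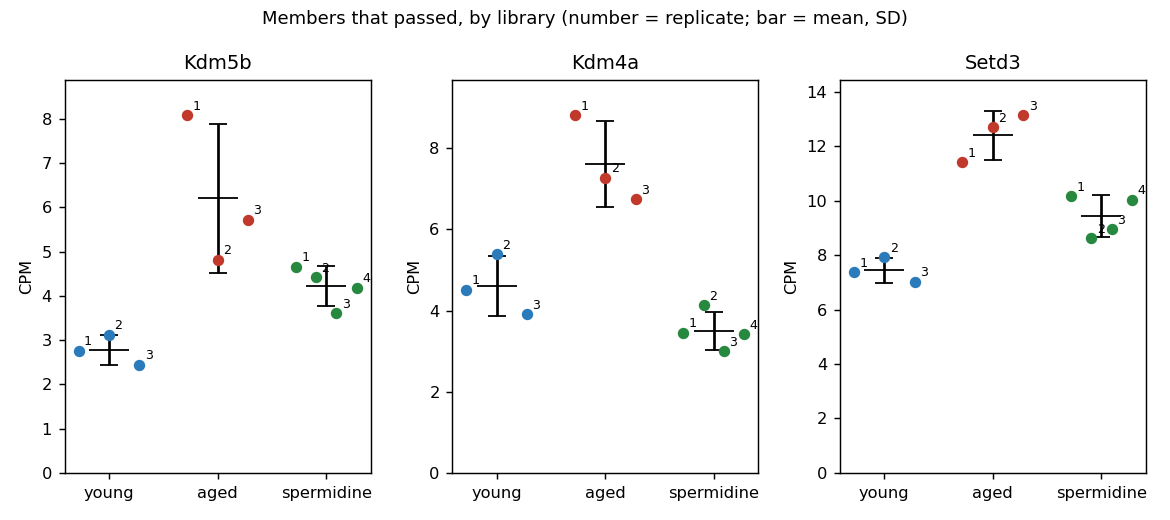
CPM of Kdm5b, Kdm4a and Setd3 in each library. Points are libraries numbered by replicate, and bars are the mean and SD of 3 young, 3 aged and 4 spermidine libraries. The aged libraries lie above the young ones for all 3 genes, and for Kdm4a the spermidine libraries, at 3.00 to 4.13 CPM, lie under each aged library.

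By histone mark, the H3K4 enzymes came first in number, with 6 writers and 6 erasers. The 5 tested writers each had a log2 fold change above 0 in aged minus young, with a median of 0.43, and 0 passed. That median was 0.05 without aged replicate 1, and -0.11 with 2 of 5 above 0 after length and GC correction. Kmt2c was at 47.4, 45.3 and 51.4 CPM in young and 152, 52.4 and 55.8 CPM in aged libraries, so its mean difference of 0.86 (SE 0.36) came largely from aged replicate 1, and was 0.13 without it. The difference was 0.56 after length and GC correction. Kmt2b, which deposits most H3K4 trimethylation in growing oocytes, was at 8.34, 7.83 and 7.96 CPM in young and 15.9, 8.03 and 8.59 CPM in aged libraries (0.43, SE 0.29, and 0.00 without aged replicate 1). Kmt2d (0.08, SE 0.16), Setd1a (0.35, SE 0.27) and Setd1b (0.94, SE 0.42) encode the other tested writers, and did not pass. Without aged replicate 1, Setd1a was at 0.05 and Setd1b at 0.70, and after length and GC correction they were at -0.11 and 0.43. Kmt2d is the 1 member whose sign turned with a call: after correction for length and GC content it was lower in aged oocytes (-0.46, edgeR adjusted p = 0.0316).

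Among the H3K4 erasers the 4 that did not pass went separate ways. Kdm1b was at 45.2, 33.0 and 53.5 CPM in young, 109, 65.1 and 49.3 CPM in aged and 81.9, 71.7, 50.8 and 84.8 CPM in spermidine libraries. Its groups overlapped, and the change of 0.76 with age (SE 0.29, edgeR adjusted p = 0.0827) was 0.34 without aged replicate 1 (edgeR adjusted p = 0.340). The change was 0.66 after length and GC correction (edgeR adjusted p = 0.0621). It passed without aged replicate 3 (0.99, edgeR adjusted p = 0.0428) and under no other alternative. Kdm1a, which encodes LSD1, stood at 9.91, 9.48 and 9.96 CPM in young and 24, 11.0 and 13.2 CPM in aged libraries (0.72, SE 0.30). Its change was 0.26 without aged replicate 1 and 0.66 after length and GC correction. Kdm5a was at 1.38 to 1.47 CPM in young and 0.991 to 2.17 CPM in aged libraries (0.05, SE 0.31, and -0.39 without aged replicate 1). Kdm5c, an X-linked relative of Kdm5b, was at 8.75, 9.51 and 9.07 CPM in young and 9.78, 7.69 and 6.38 CPM in aged libraries. It is the H3K4 eraser with a negative change (-0.20, SE 0.19), which was -0.41 without aged replicate 1 and passed after length and GC correction (-0.49, edgeR adjusted p = 0.0414).

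The 6 H3K9 writers had a median of 0.06 in aged minus young, with 4 above 0, and 0 passed. Suv39h1 was at 136, 145 and 130 CPM in young and 112, 156 and 143 CPM in aged libraries, a change of 0.00 (SE 0.19) with overlap. Setdb1, needed for silencing of retroelements, was at 35.3 to 41.6 CPM in young and at 67.8, 40.8 and 44.1 CPM in aged libraries (0.40, SE 0.22). Its change was 0.09 without aged replicate 1 and 0.23 after length and GC correction. Its relative Setdb2 was at 21.9, 15.6 and 25.0 CPM in young and 15.1, 17.3 and 11.7 CPM in aged libraries, lower by mean but overlapping (-0.50, SE 0.20, edgeR adjusted p = 0.0963), and passed without young replicate 2 (-0.67, edgeR adjusted p = 0.0411). Suv39h2 (-0.41, SE 0.24), Ehmt1 (0.11, SE 0.17) and Ehmt2 (0.44, SE 0.34) did not pass. Ehmt1 and Ehmt2 were at -0.10 and 0.33 without aged replicate 1, and at -0.13 and -0.07 after length and GC correction. Ehmt2 rests on 6 to 21 counts a library.

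Erasers of H3K9 other than Kdm4a did not pass. Kdm3a (0.30, SE 0.31) and Kdm3b (0.27, SE 0.30), which remove mono- and dimethylation, were at 1.14 and 2.51 CPM in the young mean. Kdm4b was at 0.623 to 0.898 CPM in young and 0.868 to 1.36 CPM in aged libraries (0.46, SE 0.27), and Kdm4c had a value of 0.12 (SE 0.53). Without aged replicate 1, Kdm3a was at 0.05, Kdm3b at -0.10, Kdm4b at 0.57 and Kdm4c at -0.26. After length and GC correction these were 0.20, -0.04, -0.01 and 0.08. Kdm7a, which acts on H3K9 and H3K27, was at 32.5, 28.2 and 37.3 CPM in young and 85.3, 42.4 and 36.8 CPM in aged libraries. Its change of 0.75 (SE 0.32, edgeR adjusted p = 0.118) was 0.24 without aged replicate 1, and passed after length and GC correction (0.65, edgeR adjusted p = 0.0267).

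For H3K27 the writer Ezh2 was at 157, 168 and 152 CPM in young, 286, 179 and 212 CPM in aged and 244, 199, 157 and 170 CPM in spermidine libraries. Each aged library was above each young one, but the change of 0.50 (SE 0.20, edgeR adjusted p = 0.0924) did not pass, nor did that of Ezh1 (0.23, SE 0.15). Without aged replicate 1 they were 0.25 (edgeR adjusted p = 0.352) and 0.06, and after length and GC correction 0.62 and 0.04. The erasers are Kdm6a, which is X-linked, and Kdm6b. Kdm6a was at 26.2, 21.9 and 29.8 CPM in young and 77.5, 28.2 and 30.1 CPM in aged libraries. Its change of 0.80 (SE 0.40) was 0.12 without aged replicate 1 and 0.67 after length and GC correction. Kdm6b was at 32.2, 28.2 and 27 CPM in young and 40.4, 42.9 and 48.4 CPM in aged libraries, so that the groups did not overlap, and aged replicate 1 was the lowest aged library. It did not pass (0.59, SE 0.26, edgeR adjusted p = 0.130), but did so with only the 2 groups in the fit (0.55, edgeR adjusted p = 0.0423). Its value was 0.61 without aged replicate 1, and 0.03 after length and GC correction (edgeR adjusted p = 0.946).

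The H3K36 writers Nsd1, which dimethylates, and Setd2, which trimethylates, had changes of -0.06 (SE 0.15) and 0.46 (SE 0.29). These were -0.27 and 0.02 without aged replicate 1, and -0.24 and 0.31 after length and GC correction. Nsd1 was at 103, 125 and 101 CPM in young and 129, 94.1 and 93.3 CPM in aged libraries. The erasers Kdm2a (0.81, SE 0.31) and Kdm2b (0.82, SE 0.34) were highest in aged replicate 1, with 5.21 and 140 CPM against at most 2.73 and 65.0 CPM in the other aged libraries. Without that library their changes were 0.32 and 0.25, and after length and GC correction 0.57 and 0.54. For H3K79, Dot1l, its sole known writer, was at 4.75 to 5.17 CPM in young and 9.54, 6.25 and 7.56 CPM in aged libraries (0.64, SE 0.25, edgeR adjusted p = 0.0888). Its value was 0.43 without aged replicate 1 and 0.16 after length and GC correction. Writers of methylated H4K20 did not pass, with 0.21 (SE 0.21) for Kmt5a and -0.22 (SE 0.28) for Kmt5b. These were 0.05 and -0.41 without aged replicate 1, and 0.24 and -0.37 after length and GC correction.

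The members with no settled histone target also did not pass, Setd3 apart. Setd4 was at 532, 400 and 522 CPM in young and 415, 372 and 373 CPM in aged libraries, a change of -0.33 (SE 0.14, edgeR adjusted p = 0.126) that passed without young replicate 2 (-0.45, edgeR adjusted p = 0.0492). Setd6, whose protein methylates a subunit of NF-kappaB, Kdm8, Setd5 and Kmt2e had changes of -0.15 (SE 0.28), -0.16 (SE 0.34), 0.12 (SE 0.43) and 0.13 (SE 0.22). Without aged replicate 1 these were 0.01, 0.04, -0.44 and 0.26. Set side by side, the 15 tested erasers of histone marks had a median of 0.72 with 14 above 0 and the 18 tested writers one of 0.29 with 14 above 0. Without aged replicate 1 these medians were 0.25 and 0.05, and after length and GC correction 0.44 and -0.06. The difference between erasers and writers was not tested. Transcripts of the erasers had a median of 5935 bases and those of the writers one of 6042.

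**Figure D4:**
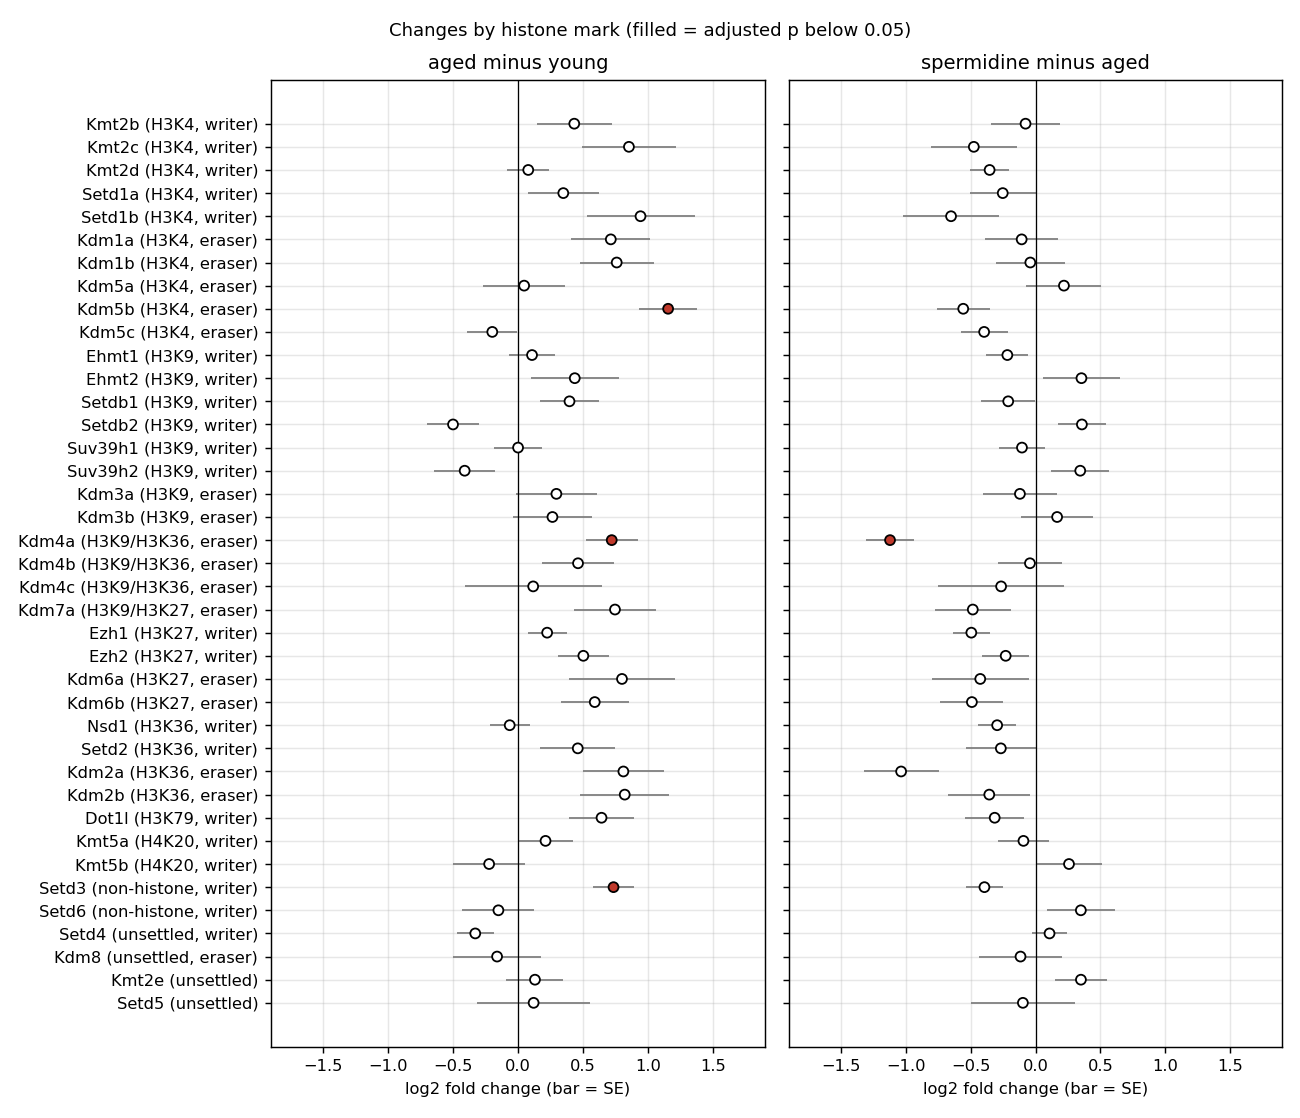
Log2 fold change of each tested member in aged minus young (left) and spermidine minus aged (right), with its SE, ordered by histone mark. Filled points passed at an adjusted p of 0.05 by edgeR. Kdm5b, Kdm4a and Setd3 are filled on the left and Kdm4a on the right.

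In 14 of the 39 members (35.9%) aged replicates 2 and 3 were both above each young library, a share near the 31.6% of all tested genes. With all 3 aged libraries, 12 members were above each young library without overlap, where 21.1% of all tested genes were, and 0 were below each of them, where 18.8% were. The 12 were Dot1l, Ehmt2, Ezh1, Ezh2, Kdm1a, Kdm2a, Kdm2b, Kdm4a, Kdm5b, Kdm6b, Kmt2c and Setd3. Aged replicate 1 was above 1.5 times the mean of the other 2 aged libraries in 16 of the 39 members. The same held for 2261 of the 12315 tested genes. Among members the ratio was highest for Kmt2c (2.82) and Kdm6a (2.66).

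**Figure D5:**
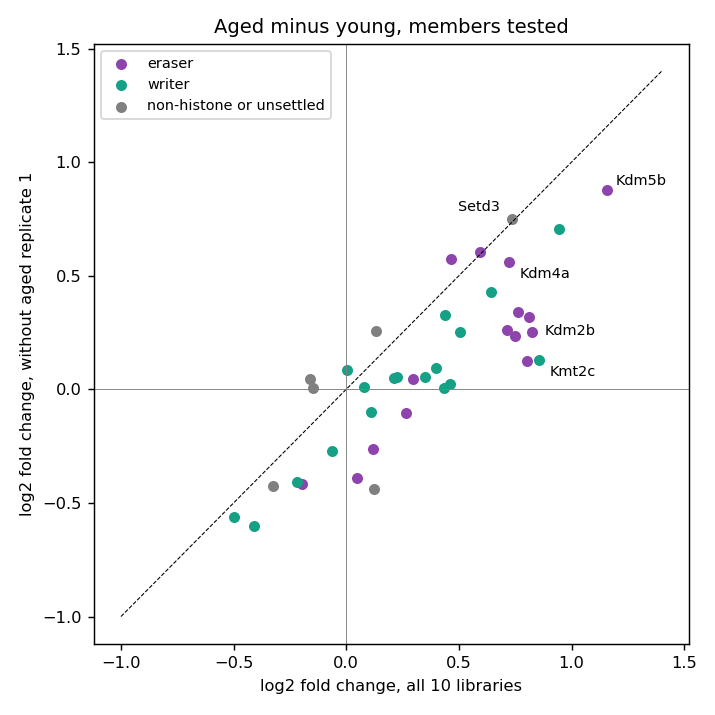
Log2 fold change of each tested member in aged minus young with all 10 libraries (x) and without aged replicate 1 (y). Points are coloured as erasers, writers or members with a non-histone or unsettled target, and the dashed line marks equal values. Most points lie under the line, Kmt2c going from 0.86 to 0.13, while Setd3 goes from 0.74 to 0.75.

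The second comparison asked which genes differ between the spermidine group and untreated aged oocytes. It shares the aged libraries with the first, so opposite signs in the 2 are not separate evidence. Of 39 members 1 was lower (2.56%) and 0 higher, against 2.44% lower and 2.42% higher among all tested genes (4.86% in either direction). At an unadjusted p under 0.05 there were 7 of 39 members, where 24.2% of all tested genes were, each with a value under 0, and DESeq2 called 0 as higher. In 7 members (17.9%) each spermidine library was under each aged library, where 8.49% of all tested genes were, and in 1 member above, where 11.4% were. The median was -0.22 with 9 of 39 above 0, against -0.03 over all tested genes, and 0.05 with 22 above 0 without aged replicate 1.

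The member that fell was Kdm4a, which averaged 7.61 CPM ± 1.07 (SD, n = 3) in aged oocytes and 3.50 CPM ± 0.470 (SD, n = 4) with spermidine, a log2 fold change of -1.12 (SE 0.18, edgeR adjusted p = 0.0106). The highest spermidine library, at 4.13 CPM, was under the lowest aged library, at 6.75 CPM. The change ran from -1.22 to -0.92 over the 19 alternatives and passed in each of them. In the authors' deposited table Kdm4a has a log2 fold change of -1.13 with a q-value of 4.48e-05 for the same comparison. Against young oocytes the spermidine group was at -0.40 (SE 0.19, edgeR adjusted p = 0.266), with overlap.

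Kdm2a and Ezh1 came next by p without passing. Kdm2a, an H3K36 eraser that binds unmethylated CpG islands, was at 1.99, 1.49, 1.3 and 1.84 CPM with spermidine, under each of the aged values of 5.21, 2.73 and 2.24 CPM. Its change of -1.03 (SE 0.29, edgeR adjusted p = 0.0594) passed with DESeq2 (adjusted p = 0.0202) and after length and GC correction (-0.89, edgeR adjusted p = 0.0345), and was -0.58 without aged replicate 1 (edgeR adjusted p = 0.167). Ezh1 was at 18.1, 15.6, 16.6 and 16.3 CPM with spermidine against 27.4, 21.5 and 21.5 CPM in aged libraries (-0.49, SE 0.14, edgeR adjusted p = 0.0621), and passed with DESeq2 (adjusted p = 0.00817). Its relative Ezh2 was at -0.23 (SE 0.18), at -0.02 without aged replicate 1 and at -0.27 after length and GC correction.

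By mark, the 5 tested H3K4 writers had a median of -0.35 with 0 above 0, which was 0.00 with 3 above 0 without aged replicate 1 and 0.03 with 3 above 0 after length and GC correction. Of these, Kmt2d was at 25.4, 24.8, 21.7 and 31.7 CPM with spermidine against 34.3, 32.7 and 32.3 CPM in aged libraries (-0.35, SE 0.15, edgeR adjusted p = 0.171). Its change was -0.33 without aged replicate 1 and 0.03 after length and GC correction. H3K4 erasers had a median of -0.11, with Kdm1b at -0.04 (SE 0.26) and Kdm5a at 0.22 (SE 0.29). Without aged replicate 1 that median was 0.31, and these members were at 0.34 and 0.62. After length and GC correction the median was 0.00, and the members were at 0.02 and 0.32. The 2 H3K27 erasers Kdm6a and Kdm6b were at -0.43 (SE 0.37) and -0.49 (SE 0.24). Without aged replicate 1 they were at 0.21 and -0.55, and after length and GC correction at -0.37 and -0.18. For Kdm6b the spermidine libraries split, with 37.5 and 45.0 CPM in replicates 1 and 4 and 21.8 and 20.8 CPM in replicates 2 and 3. H3K9 writers had a median of 0.12 (0.21 without aged replicate 1), and Setdb2 was the 1 member with each spermidine library, at 19.5, 18.2, 19.9 and 17.9 CPM, above each aged one (0.36, SE 0.19, edgeR adjusted p = 0.259). Nsd1 was at 86.7, 88.2, 80.8 and 87.7 CPM, under each aged library (-0.30, SE 0.14, and -0.13 without aged replicate 1).

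In the third comparison, of spermidine with young oocytes, 0 of 39 members passed by edgeR, where 3.44% of all tested genes were higher and 1.92% lower (5.36% in all). With no adjustment, 7 of 39 members had a p under 0.05, where 20% of all tested genes had, and DESeq2 called 1, Kdm5c. Each spermidine library was above each young one in 6 members (15.4%) and under in 3 (7.69%), against 12.1% and 8.92% of all tested genes. Kdm5c was at 7.16, 5.55, 5.67 and 5.79 CPM with spermidine, under each young library (-0.59, SE 0.18, edgeR adjusted p = 0.0816). It passed as lower by edgeR without aged replicate 1 (-0.63, adjusted p = 0.0297) and after length and GC correction (-0.68, adjusted p = 0.0109). Kdm1b, at 0.72 (SE 0.27), and Ehmt2, at 0.79 (SE 0.31, edgeR adjusted p = 0.179), had the largest positive values. The median over members was 0.19 with 26 above 0, and -0.03 with 16 above 0 without spermidine replicate 1.

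In the authors' deposited table, 4 of the 44 members have a q-value under 0.05 with a higher level in aged than in young oocytes, where 5.91% of all genes with a q-value do, and 0 a lower one. They are Kdm5b, Setd3, Kdm6b and Kdm4a, with log2 fold changes of 1.12, 0.70, 0.55 and 0.69. For spermidine against aged oocytes 1 member, Kdm4a, has such a q-value in that table, where 2.19% of all genes have one with a lower level.

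Genes whose products work with these enzymes were taken from lists of partners. Beside the counts below, 9.71% of all tested genes rose and 8.06% fell with age, with a median of 0.10. From aged to spermidine 2.42% rose and 2.44% fell, and against young oocytes 3.44% were higher with spermidine and 1.92% lower. The list medians are those with age, and were not computed without aged replicate 1. Of 10 tested PRC2 partners, 1 was higher and 1 lower in aged oocytes, Phf1 (1.24, SE 0.33) and Mtf2 (-0.50, SE 0.13), which encode accessory subunits, with a list median of 0.10. With spermidine, Phf1 (-1.26, SE 0.31) and the histone chaperone gene Rbbp4 (-0.74, SE 0.15) fell. Of 15 COMPASS partners, which form the core of H3K4 methyltransferase complexes, the core subunit gene Dpy30 fell with age from 320 to 211 CPM (-0.60, SE 0.15) and 0 rose (list median 0.16). Each of these calls was lost without certain single libraries. Over all tested genes, too, fewer passed with age when a young library was left out. With age, that of Phf1 was lost without young replicate 1 or 3 or aged replicate 2 or 3 (edgeR adjusted p up to 0.114), that of Mtf2 without young replicate 2 or 3 or aged replicate 2 or 3 (up to 0.0712), and that of Dpy30 without young replicate 1 or aged replicate 2 (up to 0.0719). With spermidine, that of Rbbp4 was lost without aged replicate 2 or 3 or spermidine replicate 2 (edgeR adjusted p up to 0.0940), and that of Phf1 without young replicate 1 or 3, aged replicate 2 or 3 or spermidine replicate 1, 2 or 3 (up to 0.127). After length and GC correction the change of Dpy30 was 0.05.

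Of 11 partners of the H3K9 enzymes, which read or support that mark, 2 fell with age. Cbx1, which encodes the heterochromatin protein HP1 beta, averaged 91.5 CPM ± 4.46 (SD, n = 3) in young and 50.1 CPM ± 5.18 (SD, n = 3) in aged oocytes and fell, with a log2 fold change of -0.87 (SE 0.13, edgeR adjusted p = 0.00185) that passed in all 20 alternatives. With spermidine it was at 76.5 CPM ± 5.60 (SD, n = 4), higher than in aged oocytes by 0.61 (SE 0.13, edgeR adjusted p = 0.0238). That call was lost without aged replicate 2 or 3 or spermidine replicate 2 (edgeR adjusted p of 0.0527 to 0.0839) and after length and GC correction. Cbx3, for HP1 gamma, fell from 9.89 CPM ± 6.23 (SD, n = 3) in young to 3.39 CPM ± 0.806 (SD, n = 3) in aged oocytes (-1.54, SE 0.37). That call was lost without young replicate 1 or aged replicates 2 or 3 (edgeR adjusted p of 0.0542 to 0.0630). The list median was -0.17.

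Among 12 other lysine methyltransferases 2 rose with age, and the list median was 0.41. Prdm16, a PR domain gene, averaged 1.96 CPM ± 0.240 (SD, n = 3) in young and 7.36 CPM ± 0.847 (SD, n = 3) in aged oocytes and rose by 1.91 on the log2 scale (SE 0.23, edgeR adjusted p = 0.000398), and was also higher with spermidine than in young oocytes (1.51, SE 0.22, edgeR adjusted p = 0.00156). Both calls of Prdm16 passed in all 19 alternatives in which it was tested. Smyd4 also rose (0.77, SE 0.23), a call lost without young replicate 1 or 3, aged replicate 1 or 2 or spermidine replicate 2 or 3 (edgeR adjusted p of 0.0513 to 0.165). Of 6 tested other demethylases, Phf8 (0.82, SE 0.22) rose. Reads assigned to Uty (-0.89, SE 0.26), a Y-linked relative of Kdm6a, fell from 1.89 to 1.02 CPM. Kdm6a had whole counts in all 10 libraries, and the origin of the reads assigned to Uty was not tested. The call of Phf8 was lost without aged replicate 1 or any 1 young library (edgeR adjusted p of 0.0711 to 0.0915), and that of Uty without young replicate 1 or 3 or aged replicate 1 or 3 (edgeR adjusted p of 0.0569 to 0.115).

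Writers use S-adenosylmethionine as methyl donor, and the Jumonji family of erasers uses 2-oxoglutarate. Of 11 tested genes of their supply, Ahcy, which clears S-adenosylhomocysteine, averaged 0.351 CPM ± 0.0827 (SD, n = 3) in young and 5.08 CPM ± 0.492 (SD, n = 3) in aged oocytes and rose by 3.85 on the log2 scale (SE 0.35, edgeR adjusted p = 6.56e-05). With spermidine it was at 1.80 CPM ± 0.656 (SD, n = 4), which was lower than in aged oocytes (-1.50, SE 0.26, edgeR adjusted p = 0.0121) and higher than in young ones (2.34, SE 0.35, edgeR adjusted p = 0.00200). The fall with spermidine was lost without aged replicate 2 (edgeR adjusted p = 0.0558), and the other calls of Ahcy passed in all 19 alternatives. Idh3a (-0.64, SE 0.19) and Idh2 (-1.92, SE 0.57), whose enzymes make 2-oxoglutarate, fell with age. Idh2 was low, at 1.07 CPM ± 0.473 (SD, n = 3) in young and 0.284 CPM ± 0.189 (SD, n = 3) in aged oocytes. Idh3a lost its call without young replicate 1 or 3 or any 1 aged library (edgeR adjusted p of 0.0629 to 0.114), and Idh2 without young replicate 1 or 2 or any 1 aged library (edgeR adjusted p of 0.0525 to 0.136). The list median was -0.03.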

How the data were processed

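RNA of 10 oocyte libraries was compared in 3 groups taken from their titles. The file deposited by the authors is a table of 18493 genes whose read count columns hold expected counts; between 15.9% and 16.7% of a library's values were not whole. It also holds log2 fold changes, p-values and q-values computed by the authors for aged over young and spermidine over aged. Tools named in the submitters' processing notes are Bowtie2 (2.3.4.3), RSEM (1.3.1) and DESeq2 (1.4.5), and the build mm9; their roles, and whether counting used strand, are not given in the sources used here. Overlapping or antisense genes therefore cannot be told apart. In 10 members some counts were not whole, which marks reads shared with other genes.

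Counts were rounded. In R 4.3.3, edgeR 4.0.16 tested the 12315 genes passing filterByExpr by its robust quasi-likelihood F test after TMM scaling. All 10 libraries entered 1 model, p-values were Benjamini-Hochberg adjusted over all tested genes, and the threshold was 0.05. SEs are those implied by F. Length and GC content are those of the longest coding transcript in a GENCODE annotation of GRCm38, matched on Gene ID, and were known for 97.4% of tested genes and for every member. The code was tested on simulated data. Alternatives were RLE or total count scaling, DESeq2 1.42.0, testing without a filter or only genes at 10 CPM in at least 3 libraries, a fit of the compared pair of groups, a replicate block, a fit that was not robust, length and GC correction, and omitted libraries. All tested members are named, with up to 3 passing genes per partner list, in order of p; 1 partner list is not reported here. Members and lists were chosen with earlier results of these data known. Plots were made in matplotlib 3.10.9 under Python 3.11.15.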

Additional observations from a re-analysis of the deposited data

Results flagged for a closer look

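Among the 4 spermidine libraries of the 39 tested members, 1 library lay far from the other 3 in 4 members, by the ratio of its gap to the whole range, where chance gives about 1 in 20 groups. Kdm3b was at 2.02 CPM in spermidine replicate 3 against 3.72 to 3.95 CPM in the others (ratio 0.880). Kdm5c was at 7.16 CPM in spermidine replicate 1 against 5.55 to 5.79 CPM (ratio 0.848). Kmt5a was at 11.7 CPM in the same library against 7.82 to 8.42 CPM (ratio 0.845). Kdm8 was at 1.73 CPM in spermidine replicate 4 against 0.902 to 1.02 CPM (ratio 0.863).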

How the results depend on the processing

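Of the 117 member results, 102 stayed on their side of the threshold under every alternative. The count of members higher in aged oocytes, 3, was 1 with a filter of 10 CPM, which leaves 22 members and drops Kdm5b and Kdm4a, and ran from 1 to 4 with 1 library left out. Over all tested genes, 2189 passed in aged minus young with all libraries. Without young replicate 1, 2 or 3 this number was 827, 1667 or 1031. The count lower with age, 0, was 2 after length and GC correction and ran from 0 to 2 with 1 library left out (2 without young replicate 2). Kmt2d reversed after length and GC correction, from 0.08 to -0.46. The count lower with spermidine than in aged oocytes, 1, was 0 with the 10 CPM filter, 4 with DESeq2 and 2 after length and GC correction, and stayed at 1 with any 1 library left out. The count lower with spermidine than in young oocytes, 0, was 1 with DESeq2, 2 after length and GC correction and 1 when both first replicates of the aged and spermidine groups were dropped, and ran from 0 to 1 with 1 library left out (1 without aged replicate 1). The causes were not tested. Kdm4a also lost its age call with only the 2 groups in the fit (edgeR adjusted p = 0.0554).

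Replicate numbers are shared between groups, but deviations of same-numbered libraries correlated from -0.275 to 0.408, so the numbers were not taken as pairs. With the replicate number as a block, 2 members were lower with spermidine than in aged oocytes, Kdm4a and Kdm6b (-0.76, edgeR adjusted p = 0.0463), and over all genes 998 passed in place of 598. Not each library correlated best with its own number.

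Total count scaling moved the median of all tested genes in aged minus young from 0.10 to 0.24 and that of the members from 0.35 to 0.51. Depth limits the low members: Ehmt2 and the 5 untested genes rest on at most 21 counts a library. Kdm4c rests on 5 to 22 counts a library and Setd1b on 9 to 51.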
